A study of Mus musculus with 12 samples.

Results

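Blood vessel genes were followed across granulosa cell samples of wild-type (WT) mice and of bERKO mice, which lack estrogen receptor beta. The set held 36 genes chosen by name: 26 markers of endothelial cells, the cells that line vessels, 4 receptors that endothelial cells share with other cells, and 6 secreted angiogenic factors. It was chosen with earlier results of these data known, so its share of calls beside that of all genes is no independent check. A gene was measured where a probe set was annotated to that gene alone, which was so for 36 of 36 members among 18193 genes in all, and where a gene had several such probe sets the brightest on average stood for it. Granulosa cells of preovulatory follicles had been cut out by laser microdissection from mice of 3 weeks of age. The 4 groups of 3 arrays were WT PMSG, bERKO PMSG, WT hCG and bERKO hCG. Every mouse had received pregnant mare serum gonadotropin (PMSG), which acts like follicle-stimulating hormone, and the PMSG groups were collected 48 h later. The hCG groups had also received human chorionic gonadotropin (hCG), which acts like the luteinizing hormone surge, 4 h before collection. Arrays within a group are biological replicates by their labels. The strain, the number of mice or follicles behind an array and the structure of the disrupted allele are not given in the sources used here.

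In the ovary, vessels run in the theca around each follicle, and the granulosa layer inside its basement membrane has none until ovulation. The LH surge is followed by ingrowth of vessels that will supply the corpus luteum. VEGF-A, made by granulosa cells, acts on endothelial cells through the receptors KDR and FLT1 with neuropilins as co-receptors, VEGF-C acts mainly through FLT4, and the angiopoietins act on the receptor TEK to steady or loosen the vessel wall.

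The main pattern lay in 1 group. On the bERKO hCG arrays, 7 members were higher than on the WT hCG arrays and 0 were lower: the junction protein VE-cadherin (Cdh5), the endothelial sialomucin endomucin (Emcn), the VEGF receptors Kdr and Flt1, the sphingosine-1-phosphate receptor S1pr1 and the neuropilins Nrp1 and Nrp2. Over all genes the same test called 1.55% higher and 1.54% lower, 3.09% in all. After PMSG alone, 0 members were called between the genotypes, where the test called 0.011% of all genes. A level here is log2(intensity + 16) after quantile normalization, so that 4 is the lowest possible level, and a change is a difference of group mean levels with its standard error (SE). A gene was called where its Benjamini-Hochberg adjusted p, over all 18193 genes in limma, was under 0.05.

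Promoters of the called genes are shown because those genes were high on the same arrays. RefSeq promoter sequence (build GRCm38.p6, 250 bases before a start site to 50 after it) was at hand for 20 of the 36 members and for 5 of the 7 called ones (not Cdh5 or S1pr1), printed 5′ to 3′ on the gene's own strand. Capitals mark the ETS motif AGGAAG or CGGAAG on either strand, bound by the ETS factors to which Erg and Fli1 belong, and, in Flt1 alone, the cAMP response element TGACGTCA.
Emcn, chr3:137340828-137341127, plus strand: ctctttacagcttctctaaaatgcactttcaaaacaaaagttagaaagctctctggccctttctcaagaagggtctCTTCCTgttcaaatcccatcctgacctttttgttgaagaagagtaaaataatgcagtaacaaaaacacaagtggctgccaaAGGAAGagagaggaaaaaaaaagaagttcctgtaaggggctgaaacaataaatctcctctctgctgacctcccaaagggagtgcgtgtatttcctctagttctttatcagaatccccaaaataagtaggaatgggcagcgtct
Flt1, chr5:147725962-147726261, minus strand: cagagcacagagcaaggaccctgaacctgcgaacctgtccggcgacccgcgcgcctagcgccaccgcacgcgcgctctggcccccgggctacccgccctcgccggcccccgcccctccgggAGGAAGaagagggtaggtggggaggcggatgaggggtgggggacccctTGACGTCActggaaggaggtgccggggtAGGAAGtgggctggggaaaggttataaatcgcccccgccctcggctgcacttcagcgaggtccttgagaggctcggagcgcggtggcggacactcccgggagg
Nrp1, chr8:128358823-128359122, plus strand: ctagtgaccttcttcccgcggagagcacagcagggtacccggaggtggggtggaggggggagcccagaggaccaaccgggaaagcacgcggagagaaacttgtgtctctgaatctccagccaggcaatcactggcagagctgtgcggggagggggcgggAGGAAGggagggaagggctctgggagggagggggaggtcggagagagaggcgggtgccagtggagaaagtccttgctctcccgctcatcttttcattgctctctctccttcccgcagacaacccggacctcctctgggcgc
Kdr, chr5:75978406-75978705, minus strand: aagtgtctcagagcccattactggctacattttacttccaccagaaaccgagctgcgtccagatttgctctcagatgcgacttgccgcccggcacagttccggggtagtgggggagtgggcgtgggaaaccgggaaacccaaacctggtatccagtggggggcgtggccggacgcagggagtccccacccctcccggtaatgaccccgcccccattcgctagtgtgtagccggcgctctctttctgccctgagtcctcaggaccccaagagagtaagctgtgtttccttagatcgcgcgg
Nrp2, chr1:62703067-62703366, plus strand: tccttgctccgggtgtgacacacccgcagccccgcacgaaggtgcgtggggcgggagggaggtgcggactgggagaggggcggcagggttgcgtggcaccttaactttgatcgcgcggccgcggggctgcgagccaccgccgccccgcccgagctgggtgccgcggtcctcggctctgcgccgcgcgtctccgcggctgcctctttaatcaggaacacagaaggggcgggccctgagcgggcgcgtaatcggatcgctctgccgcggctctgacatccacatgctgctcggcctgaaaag

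The ETS motif stood 174 and 93 bases before the Emcn start, 129 and 53 bases before that of Flt1 and 91 bases before that of Nrp1, and these letters were not in the windows of Kdr or Nrp2. Among the 20 members with sequence, 10 had it in at least 1 of their 27 promoter windows (11 of the windows), where 46.5% of all 32851 windows of that length held it. The cAMP response element stood 81 bases before the Flt1 start, and 1.79% of all windows held it. The SOX motif (ACAATG or ACAAAG), the GATA motif (AGATAA) and the hypoxia response motif (ACGTG) were searched on both strands. They were in 5, 4 and 1 of the 27 member windows, against 28.6%, 11.2% and 19.6% of all windows. The single hypoxia motif lay 211 bases before a Vegfa start site. No motif of this search overlapped another in the printed windows, and a match is a description of letters only.

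Several features of the arrays bear on these levels. Median intensity ran from 49.1 to 112.4 per array before normalization. The Gapdh 3'/5' ratio, which rises with RNA damage or incomplete copying, reached 32.16 for WT hCG replicate 1 and 23.74 for bERKO PMSG replicate 3, and was at most 11.19 elsewhere. Esr2, the gene of estrogen receptor beta, measured 8.13 to 8.64 on the 6 bERKO arrays and 8.68 to 10.33 on the 6 WT arrays, and which part of the gene its probe set covers is not known here. Granulosa cell genes had a high mean level everywhere: over 11 of them it was between 10.70 and 12.22 on each array. On all 3 arrays of WT PMSG 1 of the 11 lay under a level of 5, and likewise in WT hCG. Of the endothelial markers, 26 genes with a mean level between 5.60 and 7.40 per array, many were close to the floor. Over all 36 members, 90 of 432 levels lay under 5 (an intensity under 16), and 9 members were never that low.

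**Figure D1:**
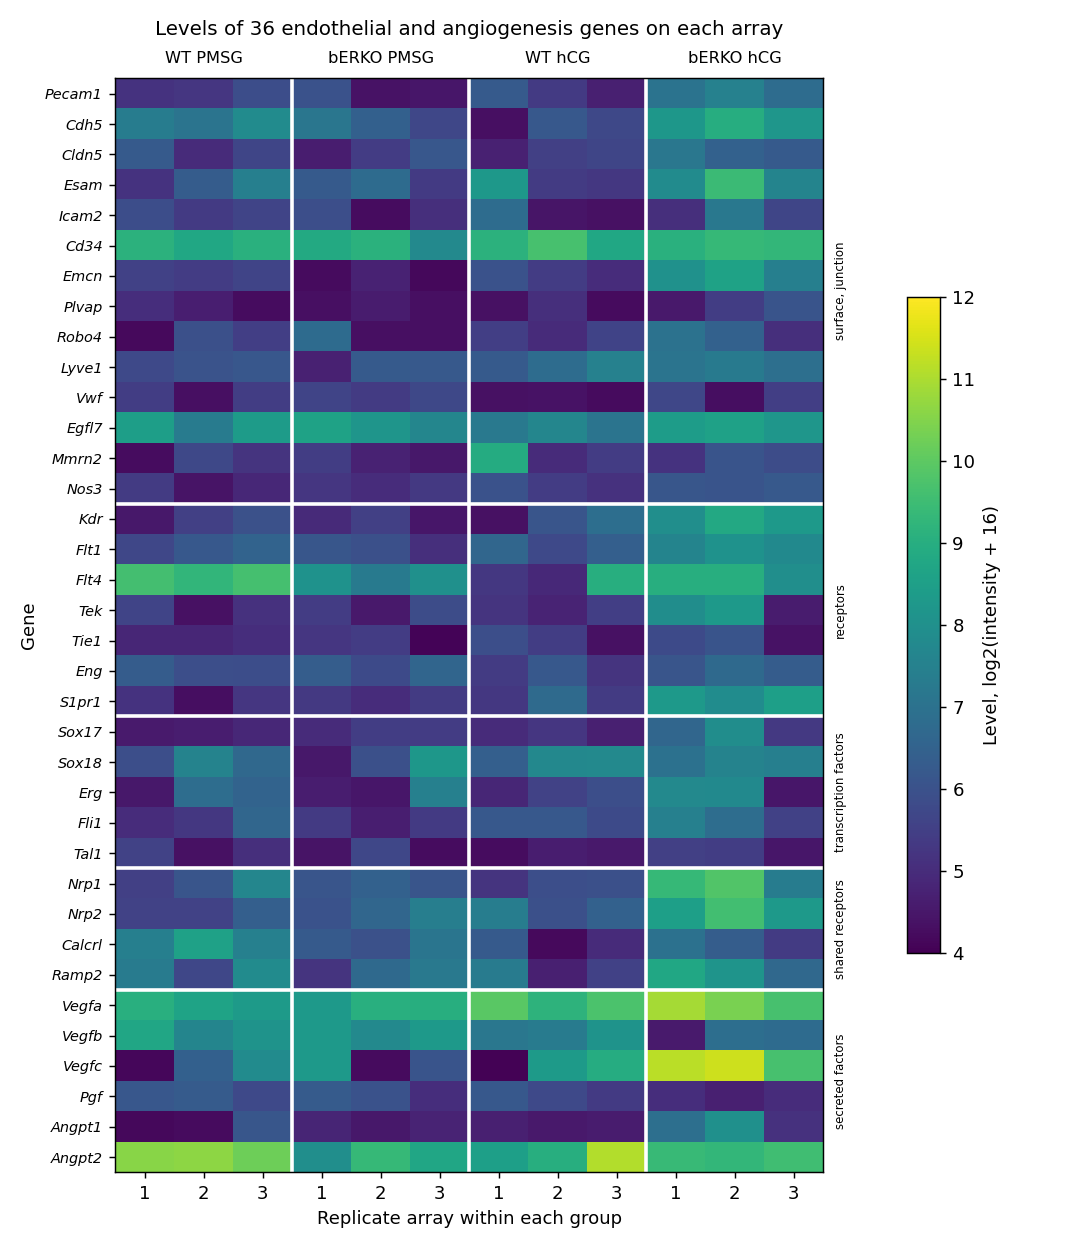
Level, log2(intensity + 16), of each of the 36 genes (rows, by class) on each of the 12 arrays (columns, 3 replicates in each of 4 groups), with brighter colour for a higher level. Many rows are brightest on the bERKO hCG arrays, while Cd34, Egfl7, Vegfa and Angpt2 were bright in every group.

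The first question was how the genotypes differed before the ovulatory signal. After PMSG, limma called 0 of 36 members and 0.011% of all genes. At an unadjusted p under 0.05 were 3 members. The largest of these 3 p-values, 0.0328 for Calcrl in limma, ranked 1258 among 18193 genes. Unadjusted p-values that small were thus common outside the set. The median change, bERKO minus WT, was -0.23 over the members (11 positive, 25 negative) and 0.04 over all genes. Emcn measured 5.56, 5.43 and 5.65 on the WT PMSG arrays and 4.24, 4.77 and 4.18 on the bERKO PMSG arrays. The groups did not overlap and the bERKO arrays lay near the floor, yet the change of -1.15 (SE 0.35) did not pass in limma (adjusted p = 0.333). Angpt2, the angiopoietin that loosens vessel walls, measured 10.59, 10.64 and 10.22 in WT and 7.94, 9.35 and 8.74 in bERKO. Again the groups did not overlap, and again the change (-1.81, SE 0.57) did not pass in limma (adjusted p = 0.347). Its other probe set had a change of -0.06. Calcrl, the receptor of adrenomedullin, had a change of -1.38 (SE 0.57, limma adjusted p = 0.475), from 7.45, 8.57 and 7.48 in WT to 6.28, 5.97 and 7.11 in bERKO. In all, the groups were apart for 5 members, 1 higher in bERKO (Sox17) and 4 lower (Emcn, Flt4, Calcrl and Angpt2), where 8.14% of all genes were apart with bERKO higher and 6.58% with bERKO lower. The balance of signs depended on the scaling: 16 were positive with each array centred on its median and 8 with values as deposited. Oocyte markers differed between the same arrays, with a mean level over 11 genes of 8.71 to 10.22 in bERKO PMSG and 5.74 to 8.38 in WT PMSG, and 0 of them near the floor on all arrays of either group. The part of captured oocyte in the members' values was not tested.

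The second question was how the genotypes differed 4 h after hCG. The median change over the 36 members was 1.08, with 32 positive and 4 negative, against -0.06 over all genes. The endothelial markers had a median of 0.97 (25 of 26 positive), the shared receptors 2.12 (4 of 4 positive) and the secreted factors 0.30 (3 of 6 positive). In bulk RNA, more cells of a type and more RNA of these genes per cell cannot be told apart.

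Among proteins of the endothelial surface, VE-cadherin holds neighbouring endothelial cells together. Cdh5 measured 8.24, 8.97 and 8.19 on the bERKO hCG arrays and 4.34, 6.20 and 5.74 on the WT hCG arrays. All bERKO arrays lay above all WT arrays, and WT replicate 1 lay near the floor. The change was 3.04 (SE 0.50, limma adjusted p = 0.0105), and 2.5 without that array. Its second probe set had a change of 2.24. Emcn, an adhesion-limiting mucin of veins and capillaries, measured 8.04, 8.60 and 7.45 in bERKO and 6.02, 5.41 and 5.0 in WT without overlap. Its change was 2.56 (SE 0.35, limma adjusted p = 0.00642). Both genes were called with any 1 of the 12 arrays left out.

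Other surface members moved less or varied more, and none of the 12 was called. PECAM-1, the most used endothelial adhesion marker, measured 7.04, 7.50 and 6.83 in bERKO and 6.28, 5.37 and 4.71 in WT for its gene Pecam1, without overlap. Claudin 5 (Cldn5), a tight junction protein, measured 7.18, 6.49 and 6.27 in bERKO and 4.74, 5.51 and 5.68 in WT, also without overlap. Egfl7, an endothelial matrix protein, measured 8.43, 8.57 and 8.19 against 7.23, 7.66 and 7.07, and Nos3, endothelial nitric oxide synthase, 6.14, 6.09 and 6.23 against 6.02, 5.43 and 5.15. Esam, a junction adhesion molecule, was at 7.85, 9.44 and 7.6 in bERKO, but WT replicate 1 reached 8.27 where the other WT arrays had 5.39 and 5.31. Icam2 had the same kind of WT array, 6.82 on replicate 1 against 4.44 and 4.35, and Mmrn2 did too, 8.91 against 4.98 and 5.42. That array was the one with a Gapdh 3'/5' ratio of 32.16, and the part of its RNA quality in these values was not tested. Cd34 was level across the study, with group means between 8.58 and 9.25. Plvap, the diaphragm protein of fenestrated vessels, had group means between 4.42 and 5.36, Robo4 between 5.16 and 6.20, and von Willebrand factor (Vwf) between 4.32 and 5.59. Lyve1, a marker of lymphatic endothelium and some macrophages, had means of 6.88 ± 0.62 (SD, n = 3) in WT hCG and 7.09 ± 0.16 (SD, n = 3) in bERKO hCG.

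**Figure D2:**
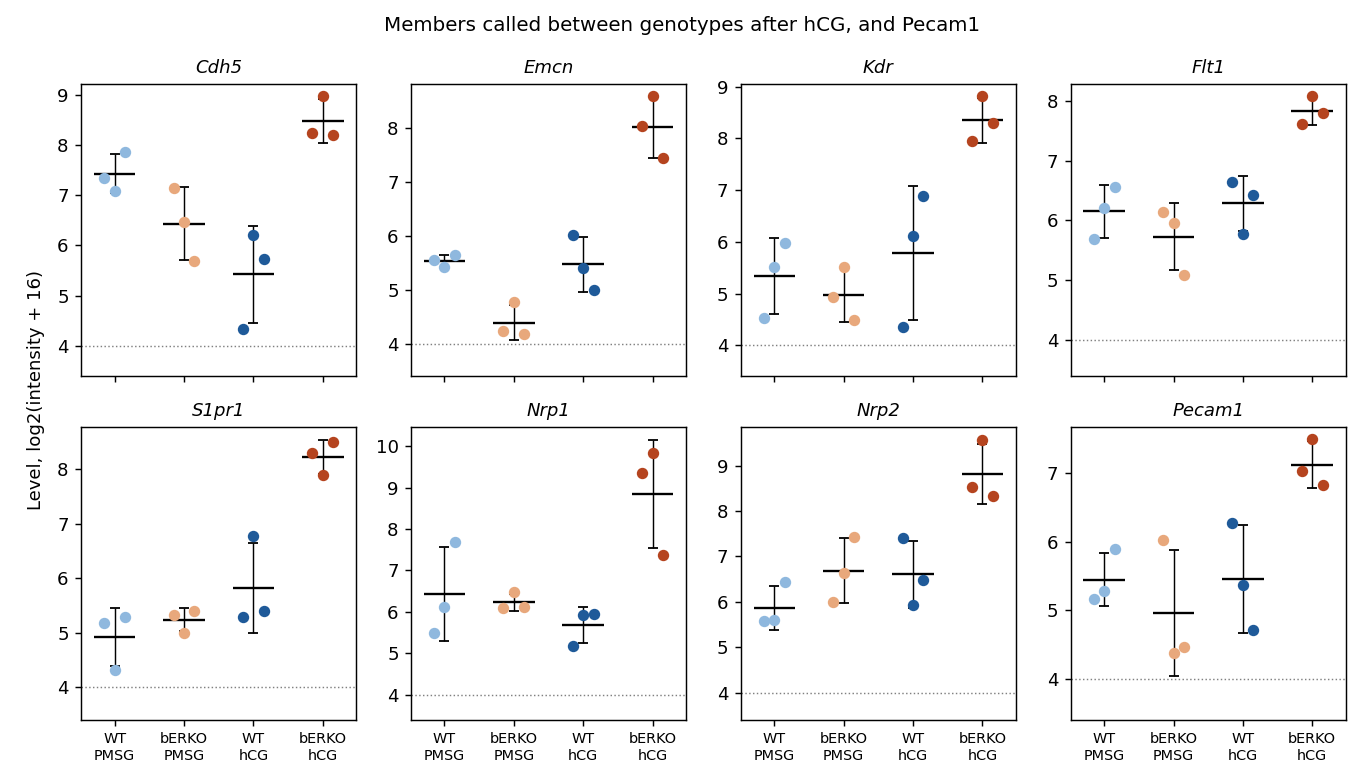
Level by array for the 7 members called between genotypes after hCG, and Pecam1, which was not called. Points are arrays, the line is the group mean, bars are ± 1 SD (n = 3), and the dotted line at 4 is the floor; all 3 bERKO hCG points lie above the WT hCG points in every panel.

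Of the 7 receptors of endothelial growth signals, 3 were called higher. Kdr, the main signalling receptor of VEGF-A, measured 7.95, 8.82 and 8.29 on the bERKO hCG arrays and 4.36, 6.12 and 6.88 on the WT hCG arrays. WT replicate 1 was again near the floor. The change was 2.57 (SE 0.59, limma adjusted p = 0.0415), and 1.85, no longer called, without that array. Flt1, which binds VEGF-A tightly and signals little, measured 7.61, 8.08 and 7.80 against 6.65, 5.78 and 6.42, a narrower gap with little spread in bERKO. Its change was 1.55 (SE 0.36, limma adjusted p = 0.0428), and its 4 probe sets ran from 1.55 to 2.69. S1pr1, which keeps vessels stable, measured 8.30, 7.89 and 8.51 against 5.29, 6.78 and 5.40, a change of 2.41 (SE 0.41, limma adjusted p = 0.0130). The calls of Kdr and Flt1 were close to the threshold: with 1 array left out, Kdr was called in 3 of 12 fits and Flt1 in 2 of 12, with changes of 1.85 to 3.11 and 1.3 to 1.74. That of S1pr1 was lost without WT hCG replicate 1 (2.14, adjusted p = 0.0585) or bERKO hCG replicate 1 (2.39, adjusted p = 0.0531).

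Flt4, Tek, Tie1 and Eng were not called. Flt4, the receptor of VEGF-C, was split within WT hCG, with 5.29 and 4.91 on replicates 1 and 2 and 9.0 on replicate 3, where bERKO had 9.03, 9.0 and 7.96. Tek, the angiopoietin receptor, measured 7.91 and 8.30 on bERKO hCG replicates 1 and 2 but 4.62 on replicate 3, with WT at 5.20, 4.79 and 5.47. Its relative Tie1 stayed between 4.37 and 6.08 on all hCG arrays. Endoglin (Eng), a TGF-beta co-receptor, measured 6.11, 6.72 and 6.33 in bERKO after hCG, where WT had 5.39, 6.19 and 5.20.

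The 5 transcription factors of the endothelial lineage gave 0 calls, with 1 of the 5 at an unadjusted p under 0.05. That was Sox17, whose unadjusted limma p of 0.00695 ranked 1199 among 18193 genes. Sox17, of arterial endothelium, measured 6.63, 7.91 and 5.33 in bERKO after hCG and 4.97, 5.27 and 4.70 in WT, without overlap. Its second probe set had a change of -0.58. Erg, which keeps endothelial identity, measured 7.77 and 7.80 on bERKO hCG replicates 1 and 2 and 4.47 on replicate 3, the same split as Tek. WT had 4.85, 5.59 and 5.91 after hCG, and bERKO PMSG replicate 3 reached 7.48. The change of Erg was 1.23, and 2.62 for its second, dimmer probe set. Fli1, a relative of Erg, measured 7.47, 6.87 and 5.55 against 6.19, 6.19 and 5.81. The change of Fli1 was 0.57, and 1.26 for its second, dimmer probe set. Sox18 and Tal1 had means of 7.33 and 5.15 in bERKO and 7.30 and 4.49 in WT.

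Neuropilins and the adrenomedullin receptor are found on endothelial cells and on others. Nrp1, co-receptor of VEGF-A and of class 3 semaphorins, measured 9.35, 9.82 and 7.37 on the bERKO hCG arrays and 5.19, 5.92 and 5.95 on the WT hCG arrays. The groups were apart, but WT PMSG replicate 3, at 7.68, exceeded bERKO hCG replicate 3. The change was 3.16 (SE 0.64, limma adjusted p = 0.0253), and the 4 Nrp1 probe sets ran from 1.49 to 3.16. Nrp2, co-receptor of VEGF-C, measured 8.52, 9.57 and 8.34 against 7.40, 5.94 and 6.48, a change of 2.21 (SE 0.49, limma adjusted p = 0.0365). The 4 Nrp2 probe sets disagreed, from -0.48 to 2.21. With 1 array left out, Nrp1 was called in 8 of 12 fits and Nrp2 in 4 of 12. Nrp1 was lost without WT hCG replicate 1 (2.92) or 2 (3.28) or bERKO hCG replicate 1 (2.91) or 2 (2.68). Calcrl and Ramp2, the 2 chains of that adrenomedullin receptor, were not called. Ramp2 measured 8.77, 8.15 and 6.69 in bERKO and 7.32, 4.69 and 5.54 in WT.

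Of the 6 secreted factors, 0 were called between genotypes after hCG in limma, and they did not share a direction. At an unadjusted p under 0.05 were 4 of the 6. The largest of these 4 p-values, 0.0324 for Pgf in limma, ranked 2561 among 18193 genes. Unadjusted p-values that small were thus common outside the set. Vegfc, the lymphatic growth factor, measured 11.17, 11.38 and 9.66 in bERKO, above every other array of the study. On the WT hCG arrays it ran from 4.06 on replicate 1 to 8.35 and 8.95, a spread as wide as the difference. Between genotypes after hCG, the changes of the 3 Vegfc probe sets ran from 0.62 to 3.62, the last for the brightest. Angpt1, the angiopoietin that steadies vessels, measured 6.92, 8.01 and 5.14 in bERKO and 4.71, 4.55 and 4.62 in WT. Vegfb and placental growth factor (Pgf), both ligands of FLT1, went the other way. Vegfb measured 4.59, 6.89 and 6.79 in bERKO and 7.16, 7.34 and 8.10 in WT, and Pgf 5.05, 4.70 and 5.0 against 6.20, 5.76 and 5.35. Vegfa measured 10.91, 10.39 and 9.68 against 9.96, 9.16 and 9.72, overlapping. Angpt2 was 9.42 ± 0.13 (SD, n = 3) in bERKO and 9.54 ± 1.37 (SD, n = 3) in WT.

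**Figure D3:**
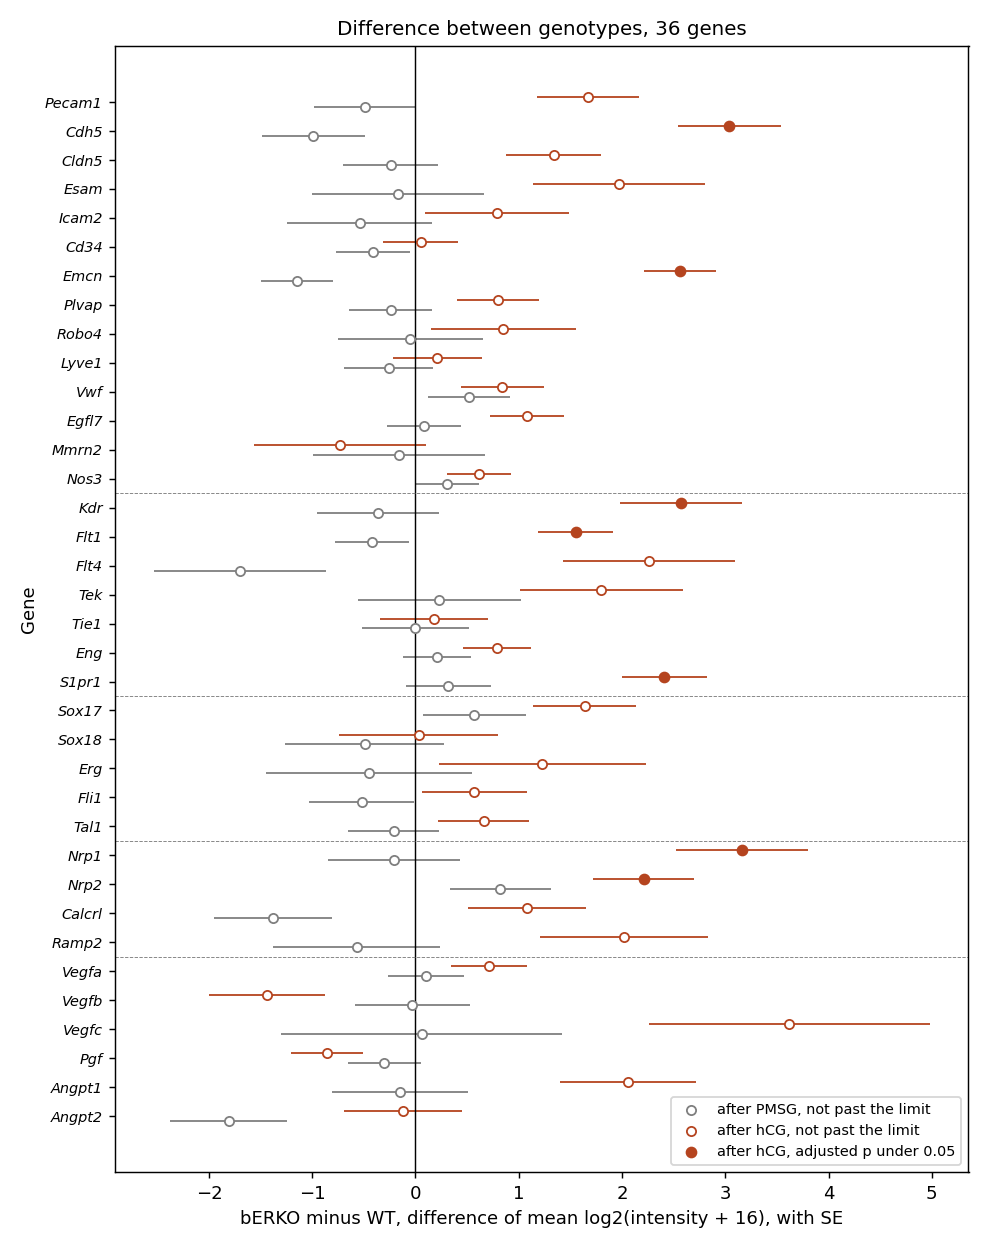
Change between genotypes, bERKO minus WT, for each of the 36 genes after PMSG (grey) and after hCG (red), with bars of ± 1 SE from limma over 3 arrays per group; filled points were called. After hCG 32 of 36 points lie to the right of 0, after PMSG 11 of 36.

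Altogether 16 members had hCG groups that did not overlap, 14 of them higher in bERKO and 2 lower (Vegfb and Pgf), where 11.4% of all genes were apart with bERKO higher and 13.2% with bERKO lower. For 9 members each bERKO hCG array lay above all 9 other arrays of the study, against 5.23% of all genes: Pecam1, Cdh5, Emcn, Nos3, Kdr, Flt1, S1pr1, Nrp2 and Vegfc. Within bERKO hCG, replicate 3 was the lowest array for 22 of 36 members and replicate 2 the highest for 22 of 36. The count of 7 called members fell to 4 without replicate 2 of either PMSG group. Those arrays enter through the shared spread and through the normalization, which was redone without the array left out. The count fell to 3 without WT hCG replicate 1, WT hCG replicate 2 or bERKO hCG replicate 2, and to 2 without bERKO hCG replicate 1. It was 7 without bERKO hCG replicate 3, 4 without both arrays of high Gapdh ratio, and 1 (Emcn) with an offset of 1 in place of 16.

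Stromal, mural and leukocyte markers were also higher on bERKO hCG than on WT hCG arrays, with overlaps with the PMSG groups. Theca and interstitial markers (6 genes) were not, with mean levels of 7.17 to 7.95 in bERKO hCG and 7.48 to 7.64 in WT hCG. Their summed intensity was 2031 to 3839 against 3521 to 4481. Erythrocyte markers (3 genes) also overlapped, at 5.30 to 5.74 in bERKO hCG and 5.15 to 5.88 in WT hCG. The mean level of the 26 endothelial markers was 7.07, 7.40 and 6.55 on the bERKO hCG arrays and between 5.60 and 6.17 on the other arrays, so that the groups were apart. Their summed intensity was 3393 to 5839 in bERKO hCG against 1945 to 2191 in WT hCG, 1577 to 1843 in bERKO PMSG and 2052 to 2811 in WT PMSG. Stromal markers (10 genes, Pdgfra and genes of the matrix) had mean levels of 9.70, 9.6 and 8.55 in bERKO hCG, again with replicate 3 lowest, and 7.41 to 8.12 in WT hCG, but 8.81 on WT PMSG replicate 3. Markers of mural cells, which wrap vessels, averaged 6.96 to 7.59 over 13 genes in bERKO hCG, and 5.83 to 6.29 in WT hCG, but 6.99 on WT PMSG replicate 3, above the lowest bERKO hCG array. Leukocyte markers averaged 5.98 to 6.93 over 14 genes in bERKO hCG and 5.51 to 5.71 in WT hCG. They averaged 6.01 and 6.12 on bERKO PMSG replicates 2 and 3, above bERKO hCG replicate 3 at 5.98. Summed intensity was 20140 to 27490 against 8985 to 15400 for stromal, 2765 to 4818 against 998.2 to 1418 for mural and 1053 to 3525 against 602.2 to 885.5 for leukocyte markers, bERKO hCG against WT hCG. Near the floor on all 3 bERKO hCG arrays were 2 of 13 mural markers, 1 of 14 leukocyte markers and 0 of the 26 endothelial and 10 stromal ones. Granulosa cell genes had lower mean levels there, 10.70 to 11.06 over 11 genes in bERKO hCG and 11.68 to 11.95 in WT hCG. These 11 genes included Esr2, the gene of the receptor that bERKO mice lack. The part of captured vessel wall, stroma or blood cells in the endothelial values was not tested.

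**Figure D4:**
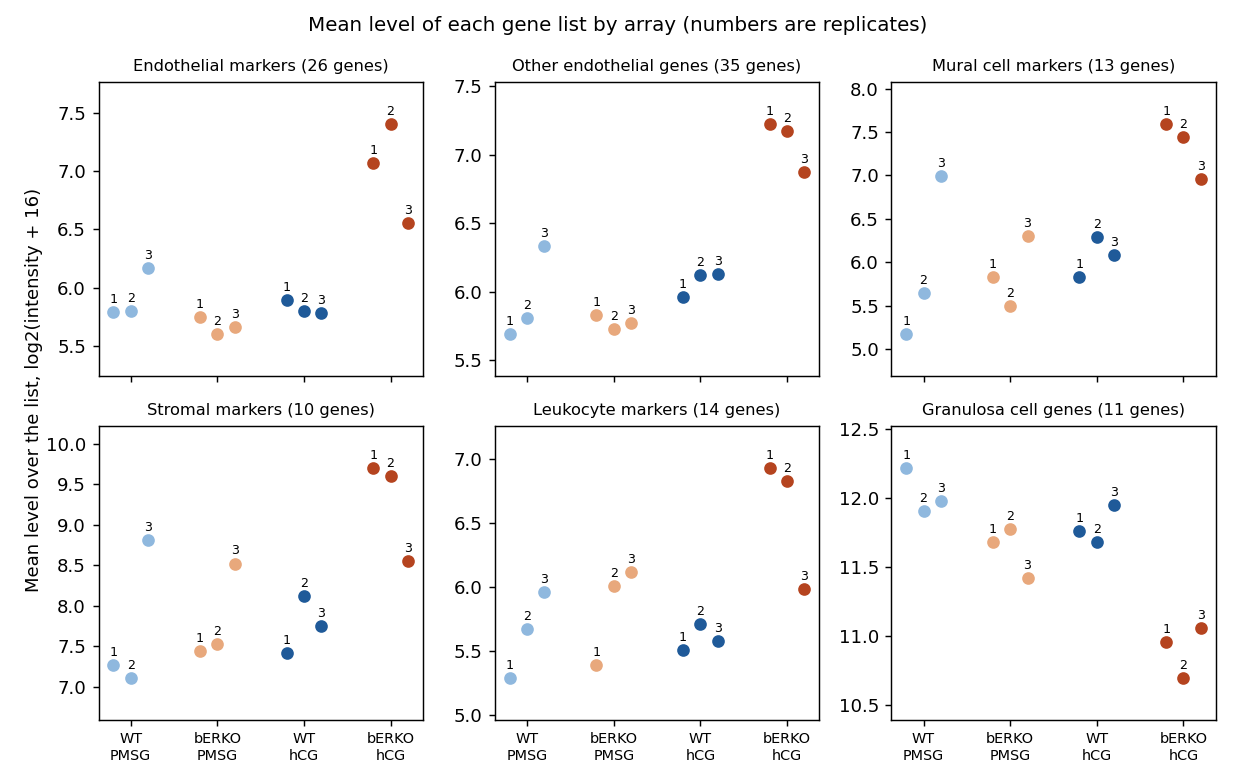
Mean level, log2(intensity + 16), over each list of genes on each array, by group, with the replicate number above each point. The endothelial, mural, stromal and leukocyte lists were highest on bERKO hCG replicates 1 and 2, and the granulosa list was lowest on the bERKO hCG arrays (10.70 to 11.06).

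Other endothelial genes were taken from a second list, which was also chosen with earlier results of these data known and so is no independent check. Of 35 measured, 4 were higher and 0 lower in bERKO after hCG, with a median change of 0.96, 26 positive and 9 negative. Those with the smallest p were Cd93, an endothelial adhesion receptor, with a change of 2.01 (SE 0.31, limma adjusted p = 0.00913), Ptprb, the phosphatase that restrains TEK, with 1.90 (SE 0.36, limma adjusted p = 0.0206), and Myct1 with 2.37 (SE 0.50, limma adjusted p = 0.0326). Cd93 measured 9.02, 8.13 and 8.58 in bERKO and 6.21, 6.89 and 6.60 in WT. Of 55 measured genes of angiogenic pathways, 1 was higher, the semaphorin Sema3a, a repelling ligand of NRP1, by 2.85 (SE 0.49, limma adjusted p = 0.0142), and 0 were lower. By sign 36 were positive and 19 negative, with a median change of 0.36, and over all genes 1.55% were called higher. Called genes of the other lists were Kcnj8, the potassium channel of pericytes (3.60, SE 0.68, limma adjusted p = 0.02), as 1 of 13 mural markers, and Col6a1 (1.86, SE 0.39, limma adjusted p = 0.0303) as 1 of 10 stromal markers. Changes were positive for 12 of 13 mural, 10 of 10 stromal and 13 of 14 leukocyte markers, with medians of 1.01, 1.52 and 0.84. Theca and interstitial genes had 3 positive and 3 negative changes, with a median of 0.10. Among 14 leukocyte, 6 theca and interstitial, 3 erythrocyte and 11 oocyte genes, limma called 0, with 5, 1, 0 and 0 at an unadjusted p under 0.05. In the same comparison an unadjusted limma p of 0.042, that of Tek, ranked 2929 among 18193 genes. Of 11 granulosa genes, Esr2 among them, 4 were called lower and 0 higher. By sign 7 were negative and 4 positive, with a median change of -0.55 and a highest of 1.11. The called ones included Inhbb (-2.74, SE 0.28, limma adjusted p = 0.00150), Gata4 (-2.58, SE 0.35, limma adjusted p = 0.00642) and Fshr (-2.62, SE 0.50, limma adjusted p = 0.0207).

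The third question was how hCG itself moved these genes in each genotype. In WT, 1 member was called, against 0.731% of all genes called higher and 1.35% lower, 2.08% in all. Calcrl fell from 7.45, 8.57 and 7.48 after PMSG to 6.26, 4.21 and 4.99 after hCG, with no overlap, a change of -2.68 (SE 0.57, limma adjusted p = 0.0374). That call was held in 5 of 12 fits with 1 array left out, and lost without any WT PMSG array (-2.30 to -2.86), WT hCG replicate 2 (-2.20) or 3 (-2.59), bERKO PMSG replicate 1 or bERKO hCG replicate 2 (both -2.68). Its 2 other probe sets, both dimmer, had changes of -0.70 and -0.63. Cdh5 went from 7.35, 7.08 and 7.86 to 4.34, 6.20 and 5.74 (-2.00, SE 0.50, limma adjusted p = 0.0644), not passing. Flt4 went from 9.62, 9.27 and 9.65 to 5.29, 4.91 and 9.0 (-3.11, SE 0.83, limma adjusted p = 0.0801), not passing, and was called (-4.43, limma adjusted p = 0.00223) without WT hCG replicate 3. The median change in WT was -0.03 over the members (18 positive, 18 negative) and -0.08 over all genes. WT groups were apart for 6 members, higher after hCG for Lyve1, S1pr1 and Vegfa and lower for Cdh5, Flt4 and Calcrl, where 8.79% of all genes were apart and higher and 15.2% apart and lower.

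In bERKO, 11 members rose after hCG and 1 fell, against 7.05% of all genes called higher and 11.9% lower, 18.9% in all. This comparison uses the same 3 bERKO hCG arrays as the difference between genotypes after hCG. The median change was 1.20 over the members and -0.19 over all genes. The bERKO groups did not overlap for 16 members that were higher after hCG and for 2 that were lower (Vegfb and Pgf), where 13.3% and 22.9% of all genes were apart in these directions. Among endothelial markers, Emcn rose from 4.24, 4.77 and 4.18 to the 7.45 to 8.60 given above, a change of 3.63 (SE 0.35, limma adjusted p = 0.000161). Kdr rose by 3.37 (SE 0.59, limma adjusted p = 0.00264) from 4.94, 5.52 and 4.48, S1pr1 by 2.99 (SE 0.41, limma adjusted p = 0.000755) from 5.33, 5.0 and 5.39, and Flt1 by 2.10 (SE 0.36, limma adjusted p = 0.00233) from 6.14, 5.96 and 5.09. Across the 4 Flt1 probe sets this change ran from 0.21 to 3.24. Pecam1 rose by 2.17 (SE 0.49, limma adjusted p = 0.0104) from 6.02, 4.38 and 4.47, and Cdh5 by 2.03 (SE 0.50, limma adjusted p = 0.0152) from 7.15, 6.46 and 5.70. The Cdh5 call was lost without bERKO PMSG replicate 3 (1.65, adjusted p = 0.0571) or bERKO hCG replicate 2 (1.79, adjusted p = 0.0601) by limma, and its second probe set had a change of 0.53. Lyve1 rose by 1.34 (SE 0.43, limma adjusted p = 0.0476), from 4.74, 6.27 and 6.23 to 7.09, 7.25 and 6.92, a call held in 4 of 12 fits with 1 array left out. It was lost without any WT PMSG or bERKO hCG array, WT hCG replicate 2 or bERKO PMSG replicate 1, where the change was 0.83. Nrp1 rose by 2.62 (SE 0.64, limma adjusted p = 0.0147) and Nrp2 by 2.13 (SE 0.49, limma adjusted p = 0.0114). The Nrp1 call was lost without bERKO hCG replicate 1 (2.37, limma adjusted p = 0.0561) or 2 (2.14, limma adjusted p = 0.0605), and with the mean over its 4 probe sets Nrp2 had a change of 0.66 that was not called. Outside the 36, 12 of 35 endothelial genes rose and 0 fell after hCG in bERKO, and 14 of 55 angiogenic pathway genes rose and 4 fell. In WT limma called 0 of the 35, with 4 at an unadjusted p under 0.05, and 1 of the 55 higher and 2 lower. For scale, an unadjusted limma p of 0.0496 in WT, that of S1pr1, ranked 3094 among 18193 genes. Of the markers of other cells in bERKO, 6 of 13 mural, 2 of 10 stromal and 2 of 14 leukocyte genes rose, 1 stromal gene fell, and 6 of 11 oocyte and 4 of 11 granulosa genes fell.

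Secreted factors moved both ways in bERKO. Vegfa rose from 8.31, 9.04 and 9.03 to 10.91, 10.39 and 9.68, without overlap, by 1.54 (SE 0.37, limma adjusted p = 0.0147). In WT it went from 9.06, 8.64 and 8.37 to 9.96, 9.16 and 9.72, also without overlap, though its change there was not called. The difference of these responses between genotypes did not pass either, and both Vegfa probe sets had positive changes in bERKO, 1.54 and 1.98. Vegfc rose by 4.53 (SE 1.36, limma adjusted p = 0.0368) from 8.31, 4.22 and 6.08, values that ranged over 4 units within the group. Its 3 probe sets had changes of 1.86 to 4.53. Vegfb fell by 2.04 (SE 0.56, limma adjusted p = 0.0251), from 8.30, 7.76 and 8.34 to 4.59, 6.89 and 6.79, and by 1.3 without bERKO hCG replicate 1, not called, nor without bERKO PMSG replicate 1 or 3. With 1 array left out, Vegfa was called in 10 of 12 fits, Vegfb in 9 and Vegfc in 6. The call of Vegfa was lost without bERKO PMSG replicate 1 (1.29) or bERKO hCG replicate 1 (1.24), and Vegfc ran from 3.54 to 5.57.

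**Figure D5:**
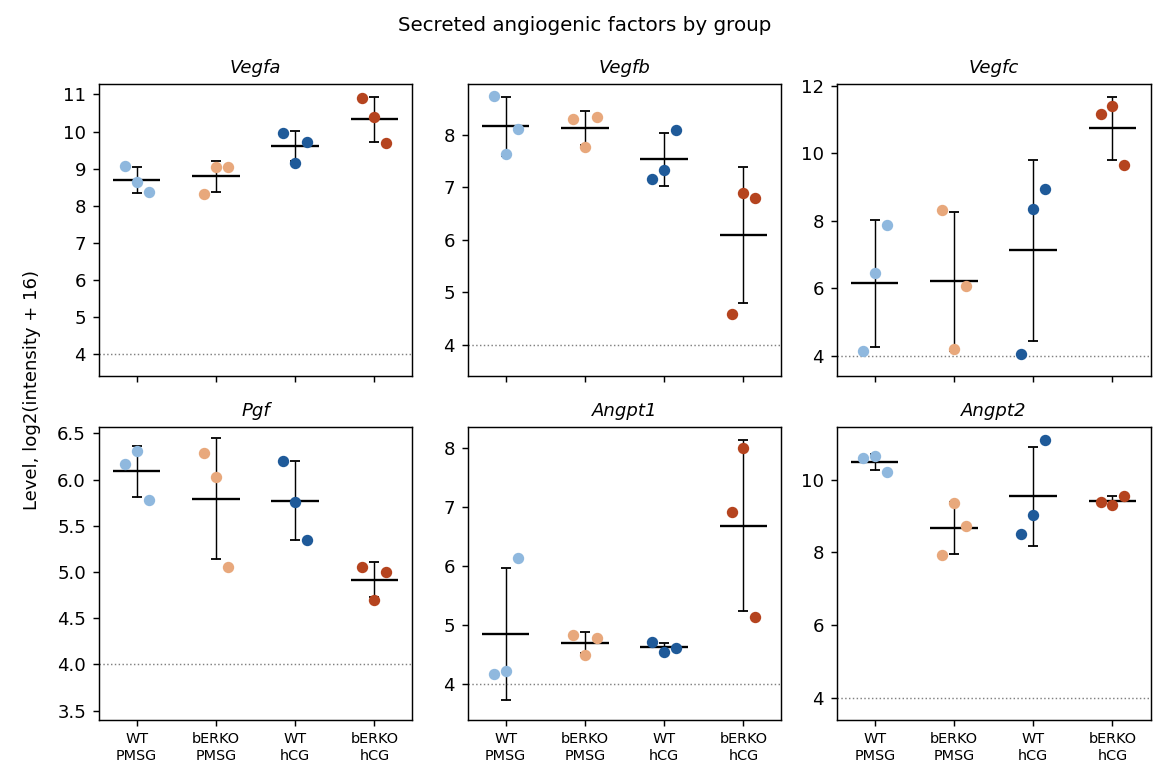
Level by array of the 6 secreted factors in the 4 groups. Points are arrays, the line is the group mean, bars are ± 1 SD (n = 3), and the dotted line at 4 is the floor; in bERKO hCG, Vegfc (9.66 to 11.38) lay above and Vegfb (4.59 to 6.89) below every other array.

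The last comparison asked whether the response to hCG differed by genotype. The difference of responses, bERKO minus WT, was called for 2 of 36 members, both higher, against 0.676% of all genes called higher and 0.638% lower, 1.31% in all. Cdh5 had a difference of 4.03 (SE 0.70, limma adjusted p = 0.0228), made of 2.03 in bERKO and -2.00 in WT, and its second probe set had 1.62. Emcn had a difference of 3.70 (SE 0.50, limma adjusted p = 0.00819), made of 3.63 in bERKO and -0.07 in WT. Flt1, next in order, had 1.97 (SE 0.51, limma adjusted p = 0.0848) and did not pass. The median difference over the members was 1.36, with 33 of 36 positive, and that over all genes -0.11. The call of Emcn was held with any 1 array left out. That of Cdh5 was lost without WT PMSG replicate 1 (4.06) or 3 (3.81) or bERKO hCG replicate 1 (4.16) or 2 (3.79), and 5 members were called without WT hCG replicate 3.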

How the data were processed

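RNA of laser-captured granulosa cells was amplified and biotin-labelled with NuGEN kits from 25 ng of total RNA and read on 1-colour Affymetrix arrays, 1 per sample, per the labels' protocols. The authors deposited linear intensity values, 1 per probe set, and on each of the 12 arrays these had a 2% trimmed mean of 500.0; software: not given in the sources used here. Of 45101 probe sets, 64 controls were left out. Of the rest, 34945 were annotated to 1 gene, 932 to several and 9160 to none listed.

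Intensities were quantile normalized and set to log2(intensity + 16), which understates changes of dim genes. Groups were fitted with limma 3.58.1 (R 4.3.3) over all 12 arrays with 1 shared spread per gene, two-sided, adjusted within each of 5 contrasts over 18193 genes; 0 symbols needed an update. The fit was checked on simulated data. The arrays' number limits the precision, and p-values measure the spread between samples labelled biological replicates. All 36 members are named; changes are printed for called members and, under 5 calls, for the 3 smallest p; up to 3 called genes are named per other list. Members and lists were chosen with earlier results of these data known. Other lists held 11 genes that are not analysed here. Same-numbered samples deviated together with correlations of -0.08 to 0.12, so the numbers were not taken as pairs. Alternatives were other offsets, scalings, probe set rules, a dim-gene filter, array weights, the replicate block, fewer groups and arrays left out. Figures used Python 3.11.15 and matplotlib 3.10.9.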

Additional observations from a re-analysis of the deposited data

Results flagged for a closer look

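Two-sided limma tests of the difference between genotypes in the response to hCG singled out a pair of members. Cdh5 responded by 2.03 in bERKO and by -2.00 in WT, a difference of 4.03 (SE 0.70, adjusted p = 0.0228). Emcn responded by 3.63 in bERKO and by -0.07 in WT, a difference of 3.70 (SE 0.50, adjusted p = 0.00819). The 2 were not equally stable. With 1 array left out, Emcn was called in 12 of 12 fits and Cdh5 in 8 of 12. With an offset of 1 Cdh5 was not called (limma adjusted p = 0.0879), and its second probe set had a difference of 1.62.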

How the results depend on the processing

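Among the members' changes given with an SE, none turned its direction under the alternatives run; signs of other members did turn after PMSG with the scaling, as given above. With 1 array left out, 267 tests of these changes kept their side of the threshold, 67 lost their call and 2 gained one; under the other settings the counts were 237, 33 and 7.

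The 7 members called between genotypes after hCG became 1 with an offset of 1, 2 with only the arrays compared, 13 with array weights and 4 without both arrays of highest Gapdh ratio. The 12 called for hCG in bERKO became 8 with an offset of 1, 10 with only the arrays compared, 17 with values as deposited and 19 with array weights. The 1 called for hCG in WT became 0 with an offset of 1 or only the arrays compared, 2 with an offset of 64, median centring or the filter on dim genes, and 3 with array weights. The 2 called for the difference of responses became 1 with an offset of 1, 5 with an offset of 64 and 4 with array weights. With 1 array left out the counts ran from 2 to 7 between genotypes after hCG, 0 to 2 in WT, 8 to 14 in bERKO and 1 to 5 for the difference of responses, and were 0 after PMSG.

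Over all genes, the 2 called after PMSG became 0 (offset 1), 12 (offset 64), 7 (as deposited), 5 (median centring), 1 (mean over probe sets), 4 (dim filter), 1 (only the arrays compared) and 7 (without both high-Gapdh arrays). The 562 called between genotypes after hCG became 225 (offset 1), 882 (offset 64), 219 (only the arrays compared), 1239 (array weights) and 238 (without both high-Gapdh arrays). The 378 called in WT became 140 (offset 1), 870 (offset 64), 233 (as deposited), 624 (dim filter), 31 (only the arrays compared), 1598 (array weights) and 809 (without both high-Gapdh arrays). The 239 of the difference of responses became 95 (offset 1), 454 (offset 64), 367 (dim filter), 420 (array weights) and 103 (without both high-Gapdh arrays). With 1 array left out these counts ran from 0 to 26, 140 to 660, 53 to 556 and 81 to 423, and from 2317 to 3848 for the 3447 called in bERKO. The causes were not tested.

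Of calls over all genes after hCG, 50.2% were higher in bERKO, 39.1% as deposited and 66.5% with median centring. For hCG in WT these shares were 35.2%, 43.3% and 18.1%, and in bERKO 37.2%, 43.0% and 24.3%. Median centring put the median of all genes at 0.24 after PMSG, -0.22 in WT and -0.41 in bERKO.

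The labels number the replicates without giving a pairing, and the numbers were not taken as pairs. With the replicate number as a block, the WT count became 0 members and 148 genes, and the difference of responses 129 genes; Flt1 (0.0771) and Nrp2 (0.0630) between genotypes after hCG, Calcrl in WT (0.0666) and Vegfc in bERKO (0.0545) no longer passed by limma's adjusted p. Dim signal limits the rest: 90 of 432 levels lay under 5.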
